A study of Brassica rapa with 12 samples.

Results

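Messenger RNA of wild type buds was compared with that of wild type stems in 8-week-old Brassica rapa, the species of Chinese cabbage and turnip. The comparison used 6 of the 12 libraries of the series, 3 from buds and 3 from stems, picked from the genotype and tissue that the sample labels state. All plants, wild type and transgenic, were grown in pots of soil and vermiculite in a climate chamber. The other 6 libraries come from 8-week-old buds and stems of BrCHR39-silenced lines, and give a second measurement of the tissue difference and lists of abundant genes chosen outside the wild type libraries. They also enter the filter, the scaling and the spread of the wild type test, which was fitted to all 12 libraries. The labels do not say how BrCHR39 was silenced or how many lines entered a library. The kind of bud (axillary or floral) and the part of the stem are not stated either. The series as a whole concerns BrCHR39, a chromatin remodelling ATPase, and apical dominance, in which the growing shoot tip holds back side buds.

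A stem carries water, sugars and signals between roots, leaves and shoot tips through its vascular tissue, and much of it is mature, walled and partly photosynthetic. A bud is a compact, unexpanded shoot or flower with a meristem and young organs, so it joins many developing cell types in a small volume. In apical dominance, auxin moving down the stem from the tip, together with strigolactones, cytokinins and sugars, sets whether a side bud grows out. In bulk tissue, more cells of a type and more RNA of a gene per cell cannot be told apart.

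The files name genes by identifier, and the gene table used here paired 1 of the 41020 identifiers with a RefSeq entry; that gene had 0 reads in all 12 libraries. Tissue markers (vascular, wall, meristem, floral or dormancy genes) could therefore not be looked up, the labels of bud and stem were not checked on them, and no functions or sequences are given. Unnamed genes are described by class, and at most 2 identifiers per direction are printed for each comparison.

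The 3 stem libraries held 14335742 to 15313960 reads assigned to genes, and the 3 bud libraries 12275190 to 15693349. Across genes, log2 CPM (CPM being a gene's read count over the library size, scaled by TMM) correlated at 0.990 to 0.991 between libraries of 1 tissue and at 0.651 to 0.653 between wild type stem and bud libraries. The wild type bud libraries stood nearer to silenced stem, at 0.702 to 0.704, and nearest to silenced bud, at 0.838 to 0.841. Replicates differed by more than counting noise, with a variance 1.55 to 1.69 times that of counting in the 6 libraries, so none was a copy of another. No label states that the 3 libraries of a group come from different plants. The p-values therefore rest on library-to-library spread alone, and that spread may be technical. That spread was small: the median coefficient of variation of genes at 100 to 1000 CPM was 2.14% among stems and 2.21% among buds, and that of genes at 1 to 10 CPM was 14.3% and 13.1%.

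More genes were detected in buds than in stems. Stem libraries had at least 1 read in 29400, 29389 and 29287 genes, and bud libraries in 31541, 31851 and 31892. Every bud library exceeded every stem library, also the bud library with the fewest reads in total. By effective size on the TMM scale, however, all bud libraries were deeper, at 13799949 to 17667055 against 12526438 to 13342270 in stem. How much of the gap in genes detected goes with this was not tested. On the authors' per-length scale, 23159 ± 30.5 genes (SD, n = 3) reached 1 FPKM in stem and 25493 ± 23.8 in bud. That scale uses library totals, not TMM. The number at 100 FPKM or more was also higher in bud, 2224 ± 2.52 against 1890 ± 7.02 in stem. At the very top the order turned: 120 ± 1.53 genes reached 1000 FPKM in stem and 99.7 ± 3.21 in bud. With 3 libraries on each side the smallest p of an exact two-sided permutation test is 0.1, and these counts are given without one.

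Stem RNA was concentrated in fewer genes. In stems 1165 ± 3.00 genes (SD, n = 3) together took 50% of the reads, and in buds 2006 ± 10.3 genes. The 10 most abundant genes of each library took 4.27% ± 0.0139 of the stem reads and 2.32% ± 0.00604 of the bud reads, and the 1000 most abundant took 47.5% ± 0.0425 and 36.9% ± 0.117. Of the 100 most abundant genes of wild type stem and of wild type bud, 31 were on both lists.

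Most genes differed between the tissues. Of 28114 genes with enough reads to be tested, 8650 were at least 2-fold higher in bud, which is 30.8%, and 6736 were at least 2-fold lower, which is 24.0% (edgeR's quasi-likelihood test, adjusted p under 0.05 by Benjamini and Hochberg). At any size 45.6% were higher in bud and 40.6% lower, and 3863 genes, 13.7%, were not called. Among the calls of at least 2-fold, the 6 libraries did not overlap between the tissues in 8568 of the 8650 higher genes and in 6683 of the 6736 lower ones. The same libraries made the calls, so this describes the calls and does not test them. At any size there was no overlap in 12509 of 12827 higher and 11174 of 11424 lower calls. Among the 3863 genes not called, 579 also did not overlap. The median absolute log2 fold change of all tested genes was 1.17. How the calls divide by direction depends on the scaling. With TMM 56.2% of the calls of at least 2-fold were higher in bud, while with library totals alone, which moved the log2 fold changes by 0.37, 67.0% were (10568 higher and 5210 lower). Limma on log2(FPKM + 1) gave 63.2% of calls of any size higher in bud against 52.9% by TMM.

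**Figure D1:**
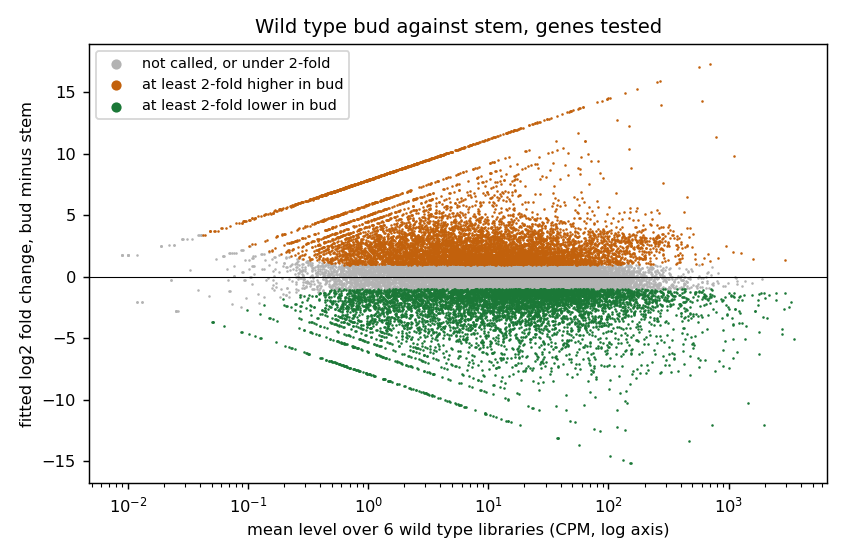
Fitted log2 fold change (bud minus stem, vertical axis) against the mean level over the 6 wild type libraries (CPM, log axis) for the 28114 genes tested. Orange and green points were called at least 2-fold higher or lower in bud; the slanting lines of points are genes with 0 or few reads in a tissue, and above 1000 CPM most points lie below 0.

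In wild type, large differences were more often in favour of bud. Of the genes called, 3187 were at least 8-fold higher in bud and 1953 at least 8-fold lower. At 32-fold or more the numbers were 1470 and 760, but 898 of the former and 154 of the latter had 0 reads in the lower tissue, where a fitted fold change depends on the model's prior count. With such a tissue set to 3 reads over its 3 libraries and folds taken from pooled reads, 1019 genes reached 32-fold in favour of bud and 709 in favour of stem, and 3121 and 1950 reached 8-fold. Differences of under 2-fold made up 4177 of the calls higher in bud and 4688 of those lower. In silenced plants large fitted differences were, with TMM, more often in favour of stem. There 2366 genes were at least 8-fold higher in bud and 2806 lower, and 1072 and 1191 at 32-fold or more. For silenced plants no such counts are given with another scaling or with 3 reads set in place of 0. At 2-fold their direction depended on the scaling, with 7789 higher and 7709 lower by TMM. Library totals alone gave 10450 higher and 5984 lower.

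The direction went with the level of the gene, averaged over both tissues. That level uses the same CPM values that give the fold change, so level and direction are not independent. A gene can enter a high class through 1 tissue alone, and 106 genes stood at 1000 CPM or more in wild type stem, against 26 in wild type bud. Among the 65 genes that averaged at least 1000 CPM over both tissues, 52 were at least 2-fold lower in bud and 5 at least 2-fold higher, with a median log2 fold change of -1.92. At 100 to 1000 CPM 37.0% of 1898 genes were at least 2-fold lower and 23.6% higher. From 10 to 100 CPM, the class with the most genes, both directions held about the same share, 23.1% lower and 22.3% higher of 13565 genes. At 1 to 10 CPM 39.1% of 9928 genes were at least 2-fold higher in bud and 22.7% lower. Below 1 CPM the shares were 48.5% higher and 22.0% lower of 2658 genes; genes this low passed the read minimum only through the group in which they were highest, so part of that class had to differ. These shares depend on the scaling in the middle classes. With library totals alone 46 of the 65 most abundant genes were still at least 2-fold lower and 5 higher, but at 100 to 1000 CPM 29.5% were lower and 27.5% higher. At 10 to 100 CPM 16.8% were then lower and 29.6% higher, and the median log2 fold change turned from -0.07 to 0.29.

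Seen by where the reads lie, the genes that differ at least 2-fold, in both directions together, held most of the reads in stem and also in bud. The 6736 genes lower in bud took 55.1%, 55.1% and 55.0% of the reads in the 3 stem libraries and 15.1%, 15.1% and 15.0% in the 3 bud libraries. The 8650 genes higher in bud took 39.0%, 39.0% and 38.9% of the bud reads and 6.40%, 6.44% and 6.43% of the stem reads. These classes were picked on the same libraries, so the shares describe the difference and do not test it. In the silenced libraries, whose tissue difference did not pick them, the genes lower in wild type bud took 43.1% ± 0.0129 of the stem reads (SD, n = 3) and 18.2% ± 0.0218 of the bud reads. The genes higher in wild type bud took 11.6% ± 0.0225 there in stem and 28.4% ± 0.0616 in bud. With library totals alone in place of TMM, the genes then called lower in bud took 45.9% of the wild type stem reads, and those called higher 45.7% of the wild type bud reads.

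**Figure D2:**
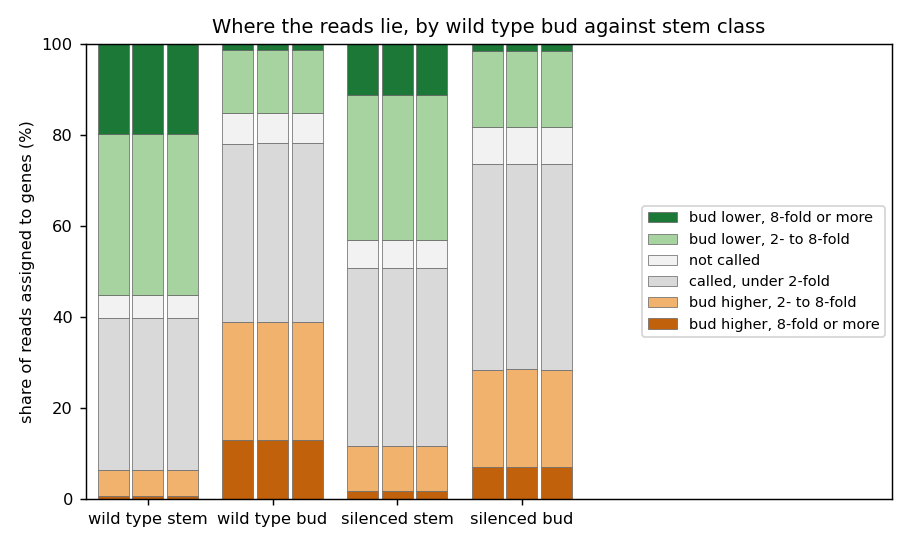
Share of each library's reads (percent) held by genes grouped by their wild type bud against stem result, 1 bar per library, 3 libraries per group. The green classes, lower in bud, fill 55.1% of wild type stem libraries and 15.1% of wild type bud libraries; the 12906 genes not tested hold at most 0.113% of any library and are not drawn.

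The most abundant genes of silenced stem were widely lower in wild type bud, while those of silenced bud were not as widely lower in wild type stem. To keep the choice apart from the test, the 100 most abundant genes were taken from the silenced libraries and looked up in wild type. The silenced stem list shared 61 genes with the 100 most abundant of wild type stem. The silenced bud list shared 40 with those of wild type bud, so it stands in less well for them. Of the 100 from silenced stem, 71 were at least 2-fold lower in wild type bud, 18 of them at least 8-fold, and 2 at least 2-fold higher, beside 24.0% lower and 30.8% higher among all genes tested. They took 15.0% ± 0.0202 of the wild type stem reads (SD, n = 3) and 6.08% ± 0.0319 of the bud reads. Of the 100 from silenced bud, 31 were at least 2-fold higher in wild type bud, about the share of all genes, and 30 at least 2-fold lower. Those took 7.47% ± 0.0368 of the wild type bud reads and, more than that, 9.03% ± 0.0129 of the wild type stem reads. With library totals alone the counts were 62 lower for the stem list, and 36 higher and 25 lower for the bud list. All genes tested are a loose comparison here, since with TMM abundant genes were more often lower in bud whatever their list. At 100 to 1000 CPM 37.0% were lower and 23.6% higher, and at 1000 CPM or more 52 and 5 of 65. The lists were not compared with genes of equal level, so how much goes with level was not tested.

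The genes with the largest gap in CPM show both ends of this. Bra012238, with 1479 coding bases, was measured at 6840, 6746 and 6763 CPM in the 3 wild type stem libraries and at 200.4, 201.2 and 199.7 CPM in the 3 bud libraries. It alone took 0.591% of the stem reads, and its level was 33.8-fold lower in bud (log2 -5.08, SE 0.0068 on log2(CPM + 0.5); edgeR's quasi-likelihood test, Benjamini-Hochberg adjusted p = 8.39e-195). The genes named for the largest gap were picked among calls of at least 2-fold whose tissues did not overlap. Their separation and low p-values were set by that choice.

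Bra016459, with the same coding length of 1479 bases, stood at 5420, 5325 and 5264 CPM in stem and at 214, 204 and 218 CPM in bud, 25.2-fold lower in bud (log2 -4.65, SE 0.0302; edgeR's test, adjusted p = 3.35e-187). Whether these 2 genes are copies that share reads is not known from the files. In the silenced libraries both stood in the same order with a smaller gap, Bra012238 at 3300 ± 9.20 CPM (SD, n = 3) in stem and 1273 ± 10.9 CPM in bud, and Bra016459 at 2621 ± 33.7 and 936 ± 11.3 CPM.

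Among genes higher in bud, Bra029765, with a coding length of only 243 bases, stood at 4234, 4237 and 4141 CPM in bud and at 1646, 1693 and 1658 CPM in stem. Its fold, 2.52, was the smallest of the 4 genes, and it was abundant in both tissues (log2 1.34, SE 0.0163; edgeR's test, adjusted p = 5.63e-121). It took 0.472% of the bud reads. Unlike the other 3 genes it had a wider gap in silenced plants, at 6829 ± 175 CPM (SD, n = 3) in bud and 1523 ± 21.9 CPM in stem, 4.48-fold (interaction, edgeR's test, adjusted p = 1.64e-70).

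Bra030386, with a coding length of 1581 bases, was close to a bud gene alone, at 2233, 2217 and 2255 CPM in bud and at 2.80, 2.25 and 2.39 CPM in stem. The difference was 900.3-fold in pooled reads (97 reads over the 3 stem libraries, 107882 over the 3 bud libraries; edgeR's test, adjusted p = 3.23e-187). In silenced libraries its stem level was alike, at 2.41 ± 0.587 CPM (SD, n = 3), and its bud level was 286.8 ± 5.05 CPM, so that the gap stood at 118-fold.

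**Figure D3:**
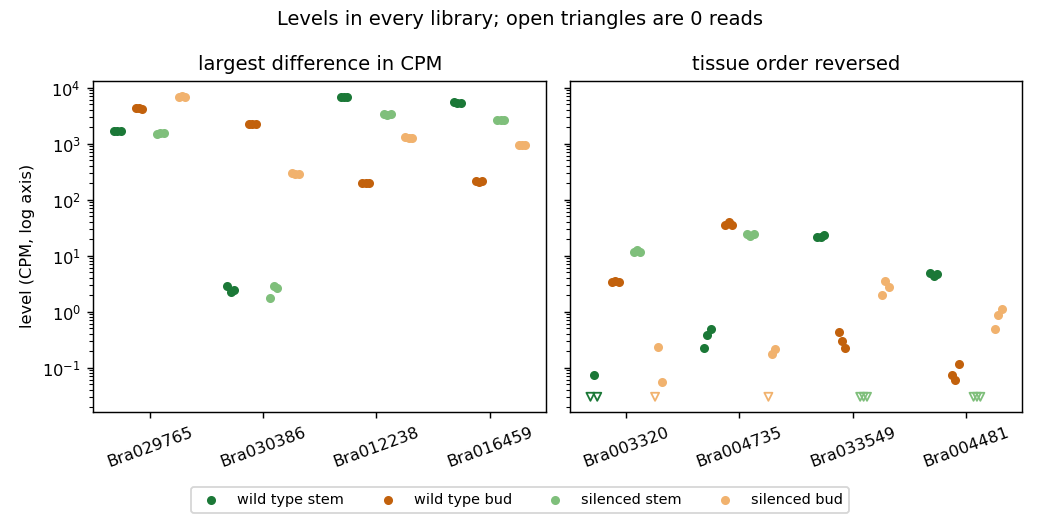
Levels (CPM, log axis) of 8 identifiers in each of the 12 libraries, 1 point per library; open triangles mark libraries with 0 reads. On the left, the genes with the largest CPM gap between wild type bud and stem keep the order of the tissues in silenced plants; on the right, the order is reversed in silenced plants.

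Genes with reads in a single tissue were far more often bud genes. Of all listed genes, 451 had at least 100 reads over the 3 wild type bud libraries and 0 over the 3 stem libraries, whereas 76 had at least 100 reads in stem and 0 in bud. On the TMM scale a count of 0 over the 3 libraries of a group allows up to 0.0768 CPM in wild type stem and 0.0622 CPM in wild type bud (3 reads over the group), so such genes are undetected at this depth, not shown to be silent. The 451 bud genes had a median of 5.07 CPM in bud, and 18 of them reached 100 CPM, with a summed level of 10534 ± 56.6 CPM (SD, n = 3). The 76 stem genes had a median of 7.35 CPM, with 5 at 100 CPM or more and a summed level of 2092 ± 25.0 CPM. These counts do not depend on the scaling. With at least 30 reads they were 970 and 168, and with at least 1000 reads 72 and 13.

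Few of these genes met both limits again in the silenced plants, with at least 100 reads in the same tissue and 0 in the other. These were 78 of the 451 bud genes, 17.3%, and 21 of the 76 stem genes, 27.6%. Most nevertheless stayed at or near 0 reads in the other tissue. Of the 451 bud genes, 308 also had 0 reads in silenced stem, 113 had 1 to 10 reads and 6 reached 100 reads there. In silenced bud 141 of them, 31.3%, had at least 100 reads, 67 had none, and their summed level was 6333 ± 20.8 CPM. Of the 76 stem genes, 48 had 0 reads in silenced bud, 27 had 1 to 10 reads and 1 reached 100 reads there. In silenced stem 37 of the 76 had at least 100 reads and 4 had none. Counted afresh by the same limits, silenced plants had 212 bud genes and 175 stem genes, a much more even division than the 451 and 76 of wild type.

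**Figure D4:**
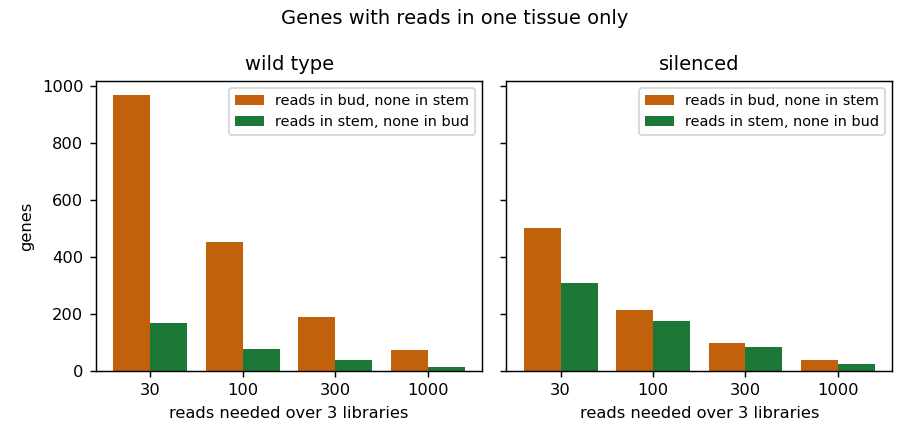
Number of genes with reads in 1 tissue and 0 in the other, by the number of reads required over the 3 libraries, in wild type (left) and silenced plants (right). Bud bars are higher at every limit; at 100 reads they stand at 451 against 76 in wild type and at 212 against 175 in silenced plants.

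On the FPKM scale, which allows for coding length, 485 genes were at 10 FPKM or more in each wild type bud library and under 1 FPKM in each stem library, and 241 genes the reverse. FPKM uses library totals, with which 67.0% of the 2-fold calls were higher in bud against 56.2% with TMM. How much of the gap between 485 and 241 goes with this was not tested. The bud genes had a median of 22.1 FPKM in bud and the highest stood at 2461 FPKM. The stem genes had a median of 25.3 FPKM in stem and a highest value of 1478 FPKM. At 100 FPKM or more the numbers were 48 and 29. In silenced plants 140 of the 485, 28.9%, kept the full pattern, and 106 were under 1 FPKM in all 3 silenced bud libraries. Of the 241 stem genes 87, 36.1%, kept it and 32 were under 1 FPKM in all silenced stem libraries.

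The tissue difference was measured again between the 3 bud and 3 stem libraries of silenced plants, in the same fit of 12 libraries, so that filter, scaling and estimated spread were shared. In silenced plants 27.7% of the genes were called at least 2-fold in favour of bud and 27.4% in favour of stem. This even division also depends on the scaling: with library totals alone 10450 genes were higher and 5984 lower. Across the 28114 genes the log2 fold changes of the wild type and silenced comparisons had a Pearson's r of 0.579 and a Spearman's rho of 0.520; genes are not independent replicates. Of the 8650 genes at least 2-fold higher in wild type bud, 4359, 50.4%, were also at least 2-fold higher in silenced bud, 1520 were not called there and 1049, 12.1%, were at least 2-fold lower. Of the 6736 lower genes 4050, 60.1%, were again at least 2-fold lower, 793 were not called and 511, 7.59%, were at least 2-fold higher. These shares are near each other with library totals alone, at 57.8% and 57.2%, so the scaling sets which direction was kept more often at 2-fold. At 8-fold or more 41.2% of the higher and 55.6% of the lower wild type genes were kept. Read from the other side the order turned, with 55.5% of the genes at least 8-fold higher in silenced bud and 38.7% of those lower being so in wild type, and 56.0% and 52.5% at 2-fold. With each genotype fitted alone, 53.3% of the 7033 higher and 61.5% of the 5978 lower wild type genes that were also tested in silenced plants were kept at 2-fold. Without an identifier for BrCHR39, its own level could not be read, and the silenced labels were not checked on it.

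**Figure D5:**
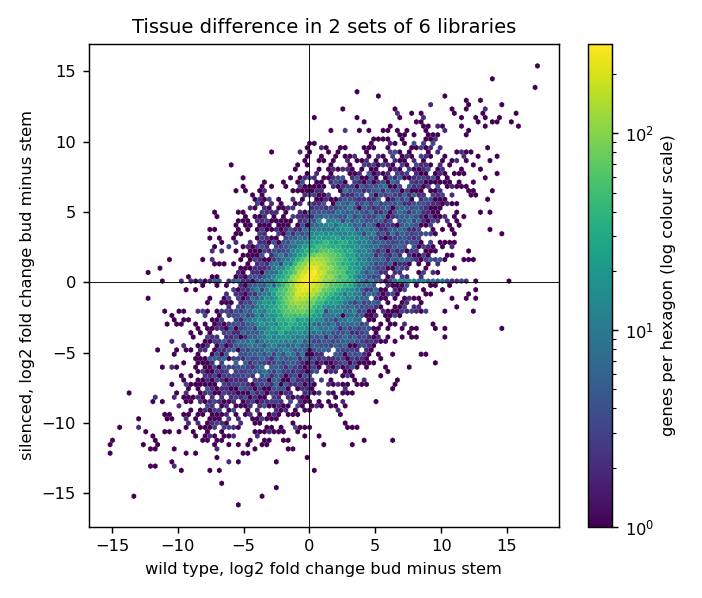
Log2 fold change of bud minus stem in wild type (horizontal axis, 6 libraries) and in silenced plants (vertical axis, another 6 libraries), with the number of genes in each hexagon on a log colour scale. The points follow the diagonal with a Pearson's r of 0.579, and the upper left and lower right areas hold the genes whose tissue order is reversed.

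The difference of both tissue differences was tested as an interaction, which called 74.4% of the tested genes (edgeR, adjusted p under 0.05). Of the 8650 genes at least 2-fold higher in wild type bud 5874 were called, 4780 with the tissue difference shifted towards stem in silenced plants and 1094 with a still larger lead of bud. Of the 6736 lower genes 5150 were called, 3483 with the difference shifted towards bud and 1667 with a still larger lead of stem. The wild type values that picked these genes also enter the interaction, so this split is a description.

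The genes named for a reversed order were picked by their fitted fold changes in both genotypes, among genes whose tissues overlapped in neither. A low interaction p-value was built into that choice, so those printed for these genes are descriptions and not tests. Bra004735, with 1014 coding bases, was measured at 35.4, 39.0 and 35.2 CPM in wild type bud and at 0.227, 0.375 and 0.479 CPM in wild type stem, 102-fold higher in bud. In silenced plants stem libraries were at 24.0, 22.2 and 24.6 CPM and bud libraries at 0, 0.171 and 0.218 CPM, 176-fold lower in bud with a counting interval of 84.8 to 438 from 7 bud reads. The interaction had an adjusted p of 8.98e-94 in edgeR's test.

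Bra003320, with a coding length of 915 bases, went the same way at a lower level, at 3.33, 3.51 and 3.34 CPM in wild type bud against 1 read over the 3 stem libraries. In silenced plants it stood at 11.8 ± 0.632 CPM (SD, n = 3) in stem and had 5 reads over the 3 bud libraries. The ratio in wild type was 133-fold with a counting interval of 23.5 to 5275, and the interaction had an adjusted p of 6.54e-49 in edgeR's test.

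Bra033549 and Bra004481 had the opposite order and were picked by fitted fold changes, which for genes with 0 reads in a group depend on the prior count. Bra033549, with 1074 coding bases, was measured at 21.8, 21.3 and 23.6 CPM in wild type stem and at 0.435, 0.298 and 0.226 CPM in wild type bud, 71.3-fold lower in bud. It had 0 reads in the silenced stem libraries and 1.98, 3.47 and 2.72 CPM in silenced bud, at least 33.6-fold higher in bud with the stem set to 3 reads over its 3 libraries (interaction, edgeR's test, adjusted p = 4.39e-51).

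Bra004481, with 1779 coding bases, was measured at 4.85, 4.35 and 4.63 CPM in wild type stem against 4 reads over the 3 bud libraries, a ratio of 55.6 with a counting interval of 21.3 to 206. It had 0 reads in silenced stem and 0.494, 0.854 and 1.09 CPM in silenced bud, at least 10.1-fold higher in bud (interaction, edgeR's test, adjusted p = 3.73e-22).

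Genes with short coding sequences differed more between the tissues than long ones, in both directions. In the fifth of tested genes with the shortest coding length, 150 to 609 bases, 32.1% were at least 2-fold higher in bud and 28.0% at least 2-fold lower. In the fifth with the longest, 1797 to 16227 bases, the shares were 27.7% and 19.1%. The median absolute log2 fold change was 1.41 for the shortest and 0.923 for the longest. Short genes collect fewer reads, so the same was read among genes of 10 to 100 CPM, where it was 1.08 for the shortest and 0.731 for the longest. In that class the first and second bud libraries differed by a median of 0.0982 for the shortest genes and 0.0849 for the longest. In wild type the direction had little relation to length: Spearman's rho of coding length and the wild type log2 fold change was 0.0135 across genes and -0.00936 by limma on log2(FPKM + 1), and the medians of the 5 classes lay between 0.07 and 0.16. In silenced plants the medians went from -0.23 for the shortest genes to 0.34 for the longest.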

How the data were processed

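Per the labels' protocols, stem and bud RNA was isolated with Trizol, and Illumina's standard library preparation followed. The authors deposited raw read counts per gene; the submitters' processing notes list featureCounts 2.0.1, HISAT2 2.1.0, TopHat2 and Bowtie 1.0.1 without roles. Build, annotation and strand setting: not given in the sources used here. FPKM values were computed by the authors and deposited; the gene lengths they imply were whole numbers (relative tolerance 1e-04) and multiples of 3 in all 35651 genes with reads, hence coding lengths.

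Counts were tested in edgeR 4.0.16 (R 4.3.3), after filterByExpr with a minimum count of 10 had kept 28114 of 41020 genes, by the quasi-likelihood test with TMM scaling and 1 term for each of 4 groups in all 12 libraries. A gene was called at an adjusted p under 0.05 (Benjamini-Hochberg over all genes tested, two-sided). The common biological coefficient of variation was 2.89%. Alternatives used DESeq2 1.42.0, limma 3.58.1 for 27487 genes on log2 FPKM with a pseudocount of 1 or 0.1, other scalings and filters, and libraries left out. The code was tested on simulated counts. Counting intervals are exact binomial at 95%; these and the limits for 0 reads (3 reads) cover counting error only. Members, lists and rules were chosen with earlier results of these data known. Identifiers named have the largest CPM gap among calls of at least 2-fold without overlap, or the largest smaller fold change among genes called with opposite tissue order in both genotypes without overlap, 2 per direction. The planned gene lists and markers could not be matched to identifiers and were not tested.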

Additional observations from a re-analysis of the deposited data

Results flagged for a closer look

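The tissue difference itself differed between wild type and silenced plants for 20904 genes by edgeR's interaction test, among them the 4 genes named for a reversed tissue order. The log2 difference of the tissue effects, wild type minus silenced, was 13.47 for Bra003320, 14.01 for Bra004735, -14.45 for Bra033549 and -12.27 for Bra004481. Each rests on a group with 7 reads or fewer, so these fitted values depend on the prior count, and the read counts given with each gene are the measure to use. With 3 libraries per group, single libraries were not examined for outlying values.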

How the results depend on the processing

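The wild type and silenced counts of calls, and the interaction, stayed within 1.5 times under every scaling, filter and tool run, except that limma on log2(FPKM + 1) put 4421 genes at least 2-fold lower in wild type bud and 5041 in silenced bud. A test against 2-fold (glmTreat) asks a stricter question and fell outside this range for calls of any size and for the interaction. Its interaction called 6392 genes with a positive and 4735 with a negative difference, against 10922 and 9982 in the main fit. A fit of the compared libraries alone has no interaction of its own. The tissue order of the 8 named genes was the same, with each adjusted p under 0.05, under every alternative that tested them. Equal replicate numbers did not pair stem with bud (correlations of deviations 0.00976, -0.00356 and 0.00458 in wild type); with the replicate block 8629 genes were at least 2-fold higher in wild type bud and 6719 lower. Leaving out 1 wild type library gave 8722 to 8851 higher and 6822 to 6872 lower; leaving out any 1 of the 12 gave 8492 to 8913 and 6822 to 7345, the most lower calls without the third silenced bud library. Without 1 wild type library, 321 to 516 genes were read in bud alone and 59 to 109 in stem alone.

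Genes with reads in bud alone numbered 970 at 30 reads and 188 at 300 reads, and in stem alone 168 and 37. Taking 10 or 1000 genes in place of 100 gave 2.32% and 36.9% of the bud reads and 4.27% and 47.5% of the stem reads. The share of higher calls kept in silenced plants was 61.6% at any size, 41.2% at 8-fold, 45.5% with the silenced libraries fitted alone (1362 genes not tested there count as not kept; 54.0% of those tested), 52.4% with upper-quartile scaling, 57.8% with library totals and 49.2% to 50.5% without 1 library; that of lower calls was 65.3%, 55.6%, 56.5% (600 not tested; 62.0% of those tested), 59.6%, 57.2% and 57.3% to 60.0%. With library totals, chosen after the data were seen, the called genes took 45.7% (higher) and 9.95% (lower) of bud reads, and 9.41% and 45.9% of stem reads. Spearman's rho with coding length was -0.00936 with limma on log2(FPKM + 1) and 0.00254 for genes of at least 10 CPM; its cause was not tested. In 1 wild type library 0 reads allow 0.170 to 0.239 CPM on the TMM scale.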

Other observations

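Identifiers numbered in a row more often shared a direction. Where a tested identifier and the next number were both at least 2-fold different between wild type bud and stem, 57.3% of 6079 pairs went the same way. The share was 52.6% at a distance of 2 numbers, 50.9% at 10 and 50.9% at 100, and the log2 fold changes of next numbers had a Pearson's r of 0.0959 over 20309 pairs. Whether the numbers follow positions in the genome is stated in no label or file, and no cause was tested.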
